A study of Mus musculus with 6 samples.

Results

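The places of the mouse genome recovered by the even-numbered probes against the long noncoding RNA Tug1, in both of the even pulldowns, were examined in cultured kidney podocytes. Peaks of even pulldown 1 and even pulldown 2 were pooled, those overlapping by at least 1 bp were merged, and merged regions on chromosomes 1 to 19 that held a peak of each even list were kept. This gave 4831 regions, called even-even regions here, of 58169 autosomal regions of the even lists (8.31%) and of 113114 merged regions of all 4 pulldowns on all chromosomes. The regions were chosen by the presence of a peak in both even lists, so that presence and the even scores are a description and support nothing. Of the 4831, 3211 overlapped no peak of either odd-probe pulldown and 1620 (33.5%) overlapped at least 1.

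The study used ChIRP-seq (chromatin isolation by RNA purification and sequencing) with 48 biotinylated probes tiled along Tug1, split by turn into an even and an odd set that share no probe. By the labels, all samples came from podocytes of the same kind, immortalized with a temperature-sensitive SV40 T antigen, at passages 10 to 12. The cells were grown at 33 °C and then differentiated at 37 °C for 10 days in low-glucose medium, with no other treatment and no genetic change of Tug1 named in the labels. Nuclei were crosslinked with glutaraldehyde and sonicated, and DNA of 200 to 400 bp was sequenced from 2 even pulldowns, 2 odd pulldowns and 2 inputs, each input being 1% of the chromatin set aside. Nothing in the labels says that pulldowns 1 and 2 came from different cultures, and their spread may be technical. Peaks were called separately in each pulldown, with number 1 of both probe sets against input 1 and number 2 of both against input 2. Even 1 and odd 1 therefore share an input, as do even 2 and odd 2, and whatever 1 input contributes to both lists cannot be told apart from recovery by both probe sets. Peak lists hold no expression values, so the podocyte identity of the cells was not checked by markers, and the read depth behind each list is unknown. None of these samples is a pulldown with probes against another RNA.

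Tug1 is a long noncoding RNA, transcribed by many tissues and found in both nucleus and cytoplasm. Nuclear long noncoding RNAs can lie at chromatin away from their own gene, and ChIRP recovers such chromatin through probes that pair with the RNA. Splitting the probes into sets with no shared oligonucleotide is the assay's usual control, since DNA that a single probe captures by its own sequence should appear with 1 set. Podocytes are the epithelial cells that wrap the glomerular capillaries and join by slit diaphragms to filter the blood. Tug1 has been studied in them for its link to PGC-1alpha, the coactivator of mitochondrial gene programs encoded by Ppargc1a.

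Even-even regions at annotated gene starts are the places where the recovered DNA can be read from the reference table, and 6 are shown, 3 with an odd peak and 3 without. They are the protein-coding starts with the highest even 2 scores for which at least 25 of the bases before the start lay inside the region and outside every annotated gene span. Stretches under 100 bases, gene models that appear to hold coding sequence alone and the copied genes around Ifnz described later were left out. Each line gives up to 250 bases before the start, read 5′ to 3′ on the gene's strand from RefSeq, build GRCm38.p6 (mm10), and capitals mark the bases inside the even-even region. The first 3 had an odd peak. Tuba1c, an alpha-tubulin gene, is on the plus strand at chr15:99029641-99029890, Zmpste24, which codes for the protease that matures prelamin A, on the minus strand at chr4:121098250-121098460, and Scpep1, a serine carboxypeptidase gene, on the minus strand at chr11:88955443-88955692. The other 3 had none. Sec22a, whose product belongs to a family of vesicle transport proteins, is on the minus strand at chr16:35363930-35364168, Krtap17-1, a keratin-associated protein gene of hair, on the minus strand at chr11:99993995-99994244, and H2-Q6, a class I major histocompatibility gene of a family with near-identical members, on the plus strand at chr17:35424600-35424849.
Tuba1c: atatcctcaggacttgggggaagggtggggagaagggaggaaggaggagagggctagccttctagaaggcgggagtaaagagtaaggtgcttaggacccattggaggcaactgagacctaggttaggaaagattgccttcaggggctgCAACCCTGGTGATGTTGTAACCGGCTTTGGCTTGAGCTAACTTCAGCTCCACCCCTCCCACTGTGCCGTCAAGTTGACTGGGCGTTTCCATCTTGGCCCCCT
Zmpste24: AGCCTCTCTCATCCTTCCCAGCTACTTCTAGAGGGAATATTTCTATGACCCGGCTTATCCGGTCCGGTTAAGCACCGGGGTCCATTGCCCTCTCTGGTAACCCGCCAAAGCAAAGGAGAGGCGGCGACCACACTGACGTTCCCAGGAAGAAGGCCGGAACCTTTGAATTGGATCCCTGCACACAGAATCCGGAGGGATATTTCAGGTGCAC
Scpep1: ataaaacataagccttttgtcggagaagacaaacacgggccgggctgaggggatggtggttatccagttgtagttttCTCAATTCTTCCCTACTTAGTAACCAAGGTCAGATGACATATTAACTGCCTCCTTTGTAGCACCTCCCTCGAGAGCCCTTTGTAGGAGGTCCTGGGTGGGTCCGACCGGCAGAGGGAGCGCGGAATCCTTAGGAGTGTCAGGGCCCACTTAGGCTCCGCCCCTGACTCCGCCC
Sec22a: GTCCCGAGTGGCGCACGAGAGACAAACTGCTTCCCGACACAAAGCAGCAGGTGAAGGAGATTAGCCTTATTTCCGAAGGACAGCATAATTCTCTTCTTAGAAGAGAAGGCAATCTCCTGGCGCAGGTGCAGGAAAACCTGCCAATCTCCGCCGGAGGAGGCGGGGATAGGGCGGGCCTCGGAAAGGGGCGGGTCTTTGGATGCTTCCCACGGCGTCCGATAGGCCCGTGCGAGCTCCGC
Krtap17-1: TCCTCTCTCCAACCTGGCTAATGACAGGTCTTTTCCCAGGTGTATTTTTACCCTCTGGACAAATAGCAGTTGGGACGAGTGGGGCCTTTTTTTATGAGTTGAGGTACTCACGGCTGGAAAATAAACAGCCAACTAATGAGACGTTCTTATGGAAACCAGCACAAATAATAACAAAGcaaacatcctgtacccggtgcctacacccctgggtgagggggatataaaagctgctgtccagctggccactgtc
H2-Q6: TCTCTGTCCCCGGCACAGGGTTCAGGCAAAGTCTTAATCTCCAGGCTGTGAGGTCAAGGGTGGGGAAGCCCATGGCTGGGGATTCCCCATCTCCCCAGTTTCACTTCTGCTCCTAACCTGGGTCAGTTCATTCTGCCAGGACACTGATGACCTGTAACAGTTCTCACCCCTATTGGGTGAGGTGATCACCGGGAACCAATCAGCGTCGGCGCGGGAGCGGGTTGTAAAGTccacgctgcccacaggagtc

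At Tuba1c the score of the peaks, a value given by the authors' peak caller, was 3100 in even 1, 947 in even 2, 3100 in odd 1 and 663 in odd 2. The Zmpste24 region had 3100 and 240 in even 1 and even 2, no peak of odd 1 and 122 in odd 2. The Scpep1 region had 3100 and 208 in the even lists, 3100 in odd 1 and none in odd 2. Sec22a, Krtap17-1 and H2-Q6 had 3100 each in even 1 and 433, 337 and 313 in even 2. The score has no stated scale, and 80.5% of autosomal even 1 peaks and 99.9% of odd 1 peaks lie at or above 3100, so it orders peaks in the replicate 2 lists only. The share of odd peaks at the even-even regions, given next, does not depend on the score.

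The even-even regions overlapped peaks of the odd probes more often than regions of a single even list did. Odd 1 peaks lay at 1170 of the 4831 regions (24.2%) and odd 2 peaks at 1134 (23.5%), and the 2 odd pulldowns thus gave nearly the same share. Both odd lists had a peak at 684 regions (14.2%), odd 1 alone at 486 and odd 2 alone at 450. Among the 53338 autosomal regions with a peak of exactly 1 even list, 5861 (11%) overlapped an odd peak. Regions of even 1 alone did so in 4928 of 33804 cases (14.6%) and regions of even 2 alone in 933 of 19534 (4.78%). The share thus differed more between the even lists than between the odd lists. The share at even-even regions was 3.05 times that at regions of 1 even list, and it was higher with odd 1 and with odd 2 taken singly. With a single even list in place of both, 16.9% of even 1 regions and 10.5% of even 2 regions overlapped an odd peak. An exact test over 2 even and 2 odd libraries cannot give a p below 0.33, and single regions are not replicates, so no p is given.

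**Figure D1:**
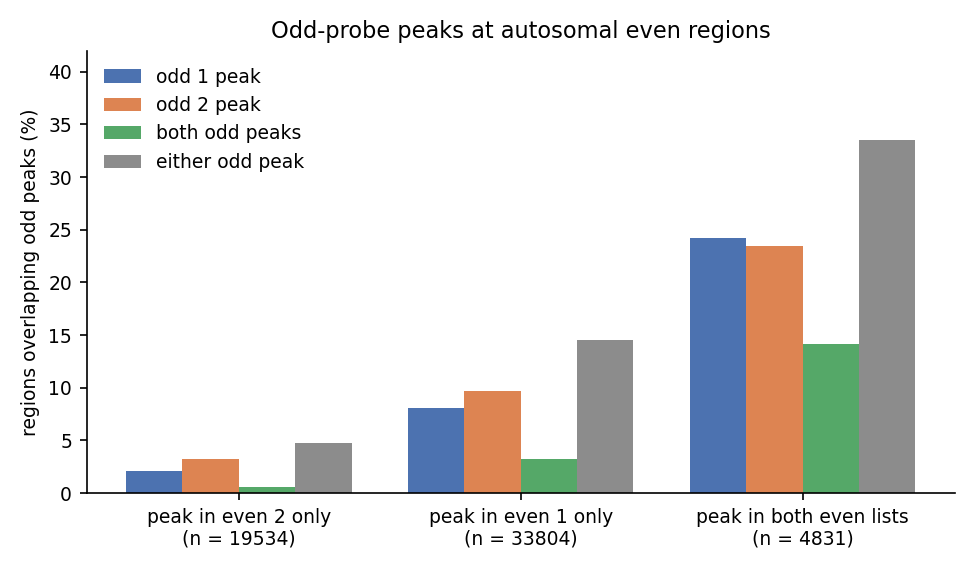
Percentage of autosomal even regions that overlap odd-probe peaks (vertical axis), for regions with a peak in even 2 only, in even 1 only or in both even lists, with bars for odd 1, odd 2, both odd lists and either. Regions of both even lists stand at 24.2% for odd 1 and 23.5% for odd 2, above regions of even 1 only (8.08% and 9.73%) and of even 2 only (2.14% and 3.27%).

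A wider region has more room to overlap a peak, and merging 2 peaks makes regions wider. The median width was 471 bp for even-even regions without an odd peak, 487.5 bp for those with one, 392 bp for regions of even 1 only and 406 bp for those of even 2 only. Among regions over 400 and up to 600 bp, 28.3% of even-even regions overlapped an odd peak, against 17.0% for even 1 only and 4.71% for even 2 only. Among regions up to 400 bp the shares were 40.3%, 12.0% and 4.13%, and among those over 800 and up to 1200 bp they were 46.2%, 33.8% and 31.3%. Among those over 600 and up to 800 bp they were 35.5%, 24.0% and 13.7%. The order of the 3 kinds of region was thus the same within these 4 widths.

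Counted from the odd side, 3288 autosomal regions had a peak of both odd lists. Of these, 57.2% held an even peak, against 10.7% of regions with a peak of 1 odd list. The rule asks for an overlap of only 1 bp, and 52 even-even regions rested on an overlap of 1 to 50 bp. Of these, 32.7% had an odd peak. Another 56 even 1 regions, whose nearest even 2 peak lay 1 to 100 bp away, just outside the rule, had one in 21.4%. The 52 are merged from peaks of both lists, which makes them wider. The sets were not matched for width, so their shares are not compared.

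Distances between overlapping peaks are bounded by the peaks' widths and are given as a description. In the 4779 regions made of exactly 1 peak of each even list (98.9% of all), the even peak centres lay a median of 57 bp apart, and 71.5% lay within 100 bp. Odd peaks at even-even regions had their centres a median of 57.5 bp (odd 1) and 60.5 bp (odd 2) from the centre of the region. Regions without an odd peak were mostly far from one, with a median of 12581 bp to the nearest odd peak, and 3.39% had one within 500 bp without overlap. Regions of even 1 only and of even 2 only that lacked an odd peak had medians of 13877.5 and 13676 bp.

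Odd-probe peaks were most frequent at the even-even regions with the highest even 2 scores. The regions were put in order of even 2 score and split into 10 equal bins. In the highest bin (734 to 3152), 58.0% of 483 regions overlapped an odd peak and 37.9% overlapped both. In the third bin (209 to 250) they were 22.6%, the lowest of the 10 bins, and 8.70%. The lowest bin (50.1 to 160) stood at 38.4%, and 24.6% of its regions lay within 10 kb of another even-even region, more than in any other of the 10 bins. Without such neighbours its share was 28.5%, and that of the highest bin 54.7%. With all regions that hold an even 2 peak split into 4 bins of similar size by that score, 7.38%, 3.59%, 3.81% and 4.13% of those of even 2 only overlapped an odd peak, from the lowest bin to the highest, against 33.2%, 26.5%, 28.5% and 39.4% of even-even regions. Odd 2 scores, which the rule did not use, had a median of 385 for 1149 odd 2 peaks at even-even regions, 301 for 3893 at regions of 1 even list and 211 for 27360 elsewhere on the autosomes.

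**Figure D2:**
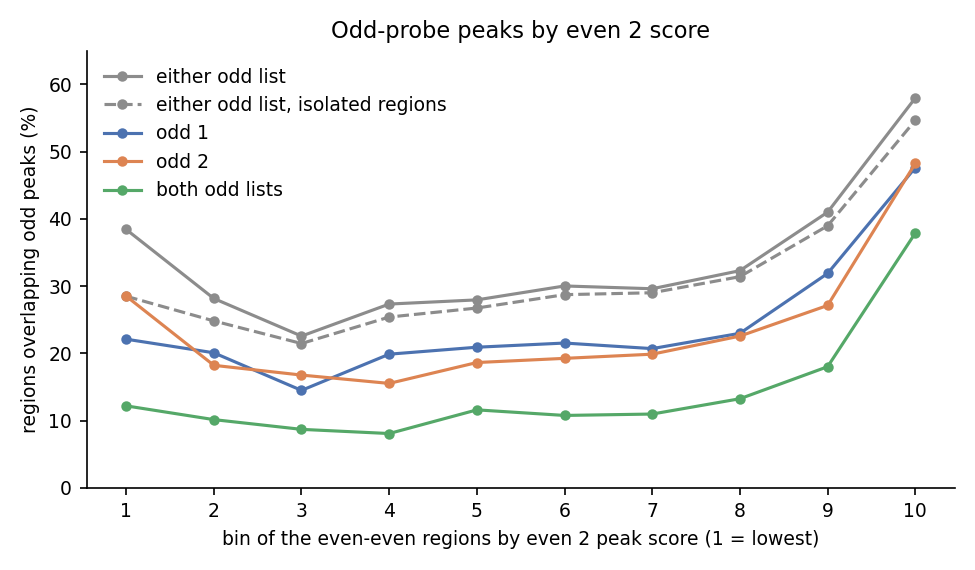
Percentage of even-even regions that overlap odd-probe peaks (vertical axis) by bin of the even 2 peak score (horizontal axis, 10 bins from lowest to highest, 483 or 484 regions each), for either odd list, for isolated regions alone, and for odd 1, odd 2 and both. The curves run between 22.6% and 41.0% for either list in the first 9 bins and reach 58.0% in the highest.

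The 10 regions of highest even 2 score with an odd peak had 3100 or more in even 1, as did the 12 highest without one. Several share an even 2 score of 3100, and position decided which of those are named. Tug1 itself (gene ID 544752, chr11:3639785-3648814), where probes can also pair with the DNA of the gene, held 3 even-even regions, and each had a peak of both odd lists. Their even 2 scores were 3100, 1725 and 1199, above 99.6%, 98.9% and 97.5% of all even-even regions. Beside Tug1, the 10 highest even 2 scores with an odd peak included a region in Faxc (chr4:21947985-21948751, even 2 score 3152, odd 2 score 3100), and one in Rasgrf2 (chr13:92043819-92044273, 3100 in all 4 lists), which codes for an exchange factor for Ras. Regions in the predicted gene Gm40862 (chr12:23477658-23478210) and in the lncRNA gene D130079A08Rik (chr14:104336805-104337184) also had 3100 in all 4 lists. A region at chr12:33407597-33410388, 6328 bp from Efcab10, had 3100 in even 1, even 2 and odd 1 and no odd 2 peak. It was the single one of the 10 without a peak of both odd lists. The rest of the 10 also had their centres outside annotated genes. Those at chr12:93576871-93577347 (even 2 score 3105), chr11:25099940-25100357 and chr12:3109754-3110226 lay 54546 to 138231 bp from the nearest gene. The one at chr1:24611436-24616498 was 5063 bp wide and overlapped a pseudogene.

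The highest even 2 scores without any odd peak lay in and around other genes. The first was a 5249 bp region in Klhdc4, a kelch-domain gene (chr8:121821978-121827226), with an even 2 score of 2611. Next came a region 35643 bp from Tlr3, the receptor for double-stranded RNA (chr8:45446718-45447371, even 2 score 2147), and one in Pcca, a subunit gene of the mitochondrial propionyl-CoA carboxylase (chr14:122845191-122845695, even 2 score 2069). Regions in Sh3pxd2a, a podosome scaffold gene (chr19:47453439-47453928), in Ggta1, which codes for a galactosyltransferase (chr2:35412913-35413433), and at Cartpt, which codes for a neuropeptide precursor (chr13:99901402-99903612), had even 2 scores of 1681, 1595 and 1562. The other 6 of the 12 lay in the lncRNA genes Gm40744 and Gm29955 or 23778 to 48271 bp from the nearest gene.

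The even-even regions without an odd peak lay inside protein-coding genes more often than those with one. By region centre, 47.1% of the 3211 regions without an odd peak and 41.7% of the 1620 with one were in a protein-coding gene, against 40.9% of the chromosome span. Regions of even 1 only gave 47.0% and regions of even 2 only 42.3%, so the share without an odd peak was close to that of even 1 only. LncRNA genes held 7.75% and 7.84%, against 7.10% of the span. Genes of other kinds, mainly pseudogenes and small RNA genes, held 2.21% of regions without and 4.14% of those with an odd peak, against 1.37% of the span. The 4.14% was 2.70% without groups of 3 or more even-even regions within 10 kb. A further 10.3% and 12.9% lay outside genes within 5 kb of one, and 32.6% and 33.4% lay farther away, where 40.6% of the span lies. The gene table has no exons, so regions were not placed in exons or introns.

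**Figure D3:**
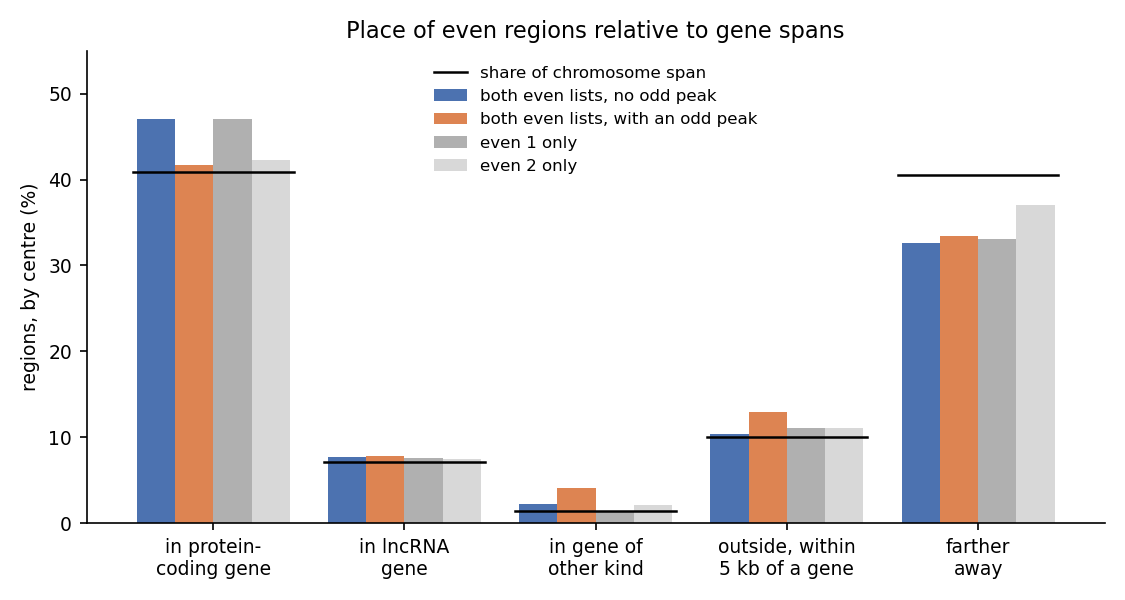
Percentage of regions whose centre lies in each place relative to genes (vertical axis), for even-even regions without and with an odd peak and for regions of even 1 only and even 2 only, with black lines at the share of the autosomal chromosome span. Even-even regions without an odd peak stand at 47.1% in protein-coding genes and those with one at 41.7%, and genes of other kinds hold 2.21% and 4.14%.

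Even-even regions at genes of rRNA, tRNA, snRNA and 7S RNA, the structural RNAs of translation, splicing and protein targeting, nearly all had peaks of both odd lists too. Of 61 autosomal rRNA genes of the table, which include the 5S genes, 41 had an even-even region, and these 40 regions all overlapped an odd peak, 39 of them in both odd lists. Their even 2 scores ran from 55.9 to 2709 with a median of 681. Of 391 tRNA genes 7 (1.79%) had an even-even region, and of 931 snRNA genes 4 (0.43%). These genes are far shorter than most protein-coding genes, so the shares of the 2 are not compared. Of autosomal start windows, which are 300 bases long, 0.332% were overlapped by an even-even region. All 6 regions at tRNA genes, all 4 at snRNA genes and both at scRNA genes had peaks of both odd lists. The scRNA genes were Rn7s1 and Rn7s2, which code for 7S RNA of the signal recognition particle. At Rn7s1 (region chr12:69159171-69159679) the scores were 3100, 301, 3100 and 235 in even 1, even 2, odd 1 and odd 2, and at Rn7s2 (chr12:69361126-69361609) they were 3100, 344, 3100 and 643. The methionine tRNA gene n-TMcat5 (region chr13:23499968-23500292) had 3100, 1978, 3100 and 837. In all, 51 of 52 regions at these 4 kinds of gene had both odd lists, where 14.2% of all even-even regions did. The array of 5S genes on chromosome 8, described later, held 38 even-even regions, which are not separate observations. Of regions of 1 even list, 13 of 25 at tRNA genes, 4 of 11 at snRNA genes and 1 of 2 at rRNA genes overlapped an odd peak. The 3 regions at snoRNA genes had no odd peak. Most of these genes belong to families of near-identical copies, for which reads cannot be assigned to a single copy with certainty.

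A microRNA gene was overlapped by 2 even-even regions, among 919 autosomal hairpins of the reference table, and their mature sequences are shown because they differ in the odd lists. Mir7687 (chr8:120538696-120538754, plus strand) was overlapped by a region without an odd peak, with an even 2 score of 125. Mir6236 (chr9:110281287-110281409, plus strand) was overlapped by a region with peaks in all 4 lists, with 392 in even 2 and 203 in odd 2. Capitals mark the seed, bases 2 to 8, which the microRNAs do not share.
mmu-miR-7687-5p: aGGCGGGGaaccugaggcgcaggcu
mmu-miR-6236: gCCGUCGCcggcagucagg

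Even-even regions that lay close together overlapped odd peaks more often than isolated ones. Of the 4831 regions, 4350 had no other even-even region within 10 kb, and 30.9% of these overlapped an odd peak. The 256 regions in pairs did so in 39.1%, and the 225 regions in 31 groups of 3 or more in 78.2%. In those groups odd 2 had a peak at 157 regions and odd 1 at 105, whereas among isolated regions odd 1 had 992 and odd 2 had 905. No repeat annotation was used, so the part that copied sequence has in these groups was not tested.

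**Figure D4:**
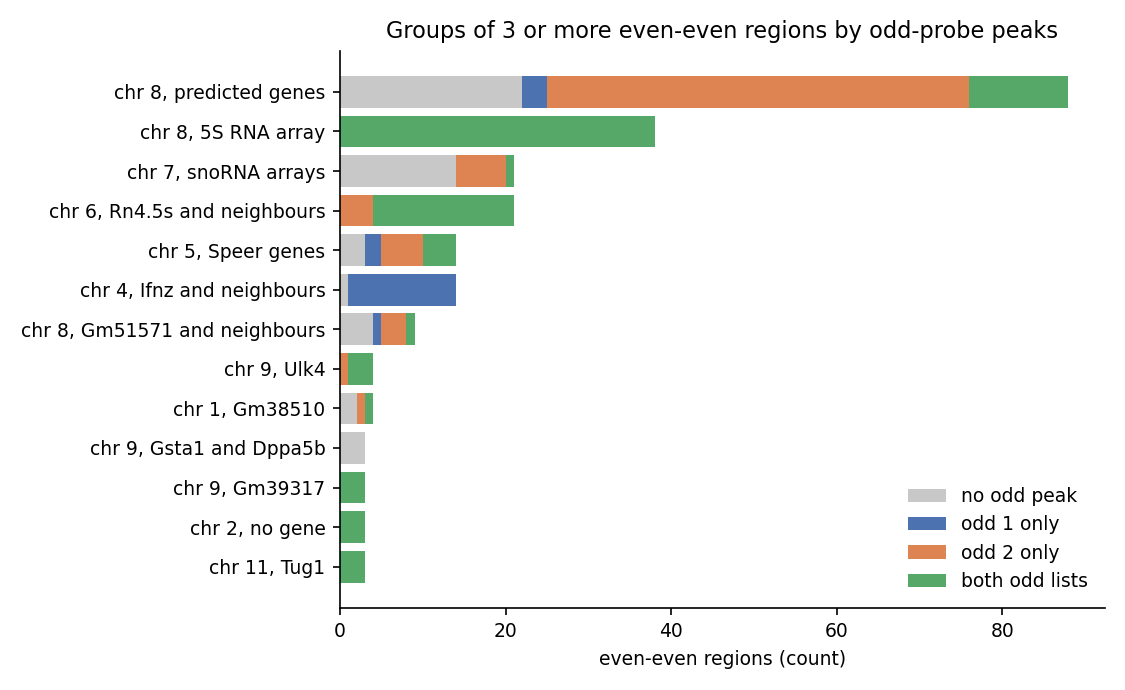
Number of even-even regions (horizontal axis) in each stretch of chromosome with groups of 3 or more, stacked by odd-probe peaks (none, odd 1 only, odd 2 only, both). The 5S RNA array on chromosome 8 has both odd lists at all 38 regions, and the stretch around Ifnz on chromosome 4 has odd 1 alone at 13 of 14.

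The groups fell into patterns by odd library. The array of 5S ribosomal RNA genes on chromosome 8 (chr8:123538553-123623890) held 38 regions, each with both odd lists. At chr2:98662099-98667457, where no gene is annotated, 3 regions had even 2 scores of 2618 to 3100, each with both odd lists. The stretch around Rn4.5s, a small RNA gene, on chromosome 6 (chr6:47651531-47773364) held 21 regions, of which all had odd 2 and 17 had odd 1. The largest stretch, of predicted genes and pseudogenes at chr8:19702912-20829473, held 88 regions, and odd 2 had a peak at 63 of them but odd 1 at 15. On chromosome 5, 14 regions at and near Speer genes, a family expressed in testis (chr5:14933799-15687818), had odd 1 at 6 and odd 2 at 9. On chromosome 7, the stretch chr7:59740569-59896172 at Snhg14, the host transcript of the Snord116 snoRNA cluster of the imprinted Prader-Willi region, held 21 regions, 14 of them without an odd peak, 7 with odd 2 and 1 with odd 1. At Gsta1, a glutathione transferase gene, and Dppa5b (chr9:78239714-78247661), 3 regions had even 2 scores of 393 to 726 and no odd peak. In Ulk4, a pseudokinase gene (chr9:121220219-121236267), 4 wide regions of 1470 to 1966 bp had odd 2 at all and odd 1 at 3.

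The run of genes around Ifnz on chromosome 4 (chr4:88754756-88806492) differed between the odd lists throughout. Ifnz codes for interferon zeta, a type I interferon, and several of the predicted genes beside it have start sequences near-identical to those of others in the run. The run held 14 even-even regions of 459 to 1267 bp, with 3100 in even 1 at each. Their even 2 scores ran from 119 to 859. Odd 1 had a peak with a score of 3100 at 13 of them and odd 2 at none. The exception was the region at Gm13271, the first of the run, which had no odd peak and the lowest even 2 score, 119. Over the 250 bases before the annotated start, Gm13272, Gm13285 and Gm13287 were identical, and Gm13283 matched them at 247 of 250. In the same ungapped comparison Gm13271 matched Gm13287 at 102 of 250, and Gm13290 and Gm13279, whose regions had an odd 1 peak, matched it at 60. The start window of Gm13287, 250 bases before to 50 after, held 25 CpG dinucleotides and that of Gm13271 held 0. Reads of identical copies cannot be assigned to 1 gene, so the 14 regions are not separate observations.

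Protein-coding genes overlapped by even-even regions were longer than genes overall. In total 1814 of 20665 autosomal protein-coding genes were overlapped (8.78%), 1191 by regions without an odd peak alone, 466 by regions with one alone and 157 by both. The overlapped genes had a median length of 81.7 kb against 17.5 kb over all. With 5 kb added to each side, 2246 genes (10.9%) had an even-even region, and the share was 4.79% for genes under 20 kb, 12% for 20 to 100 kb and 36.4% over 100 kb. It was 28.7% for genes of 100 to 300 kb and 62.1% for the 533 genes over 300 kb.

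The genes with most regions without an odd peak were Asic2, an acid-sensing sodium channel, Sgcz, zeta-sarcoglycan of the dystrophin complex, and Cdh13, T-cadherin, with 5 each. In Asic2 (chr11:80880163-81968396, 1088 kb) the 5 regions all lay 85.5% to 98.1% along the span, counted from its low coordinate, with even 2 scores of 177 to 859. In Cdh13 (chr8:118140017-119324929) they lay 15.7% to 95.6% along the span, with scores of 188 to 442. Sgcz (chr8:37517840-38661705) had a sixth region, with odd 1 alone. The next were Zfp469, Robo2, a receptor for Slit guidance proteins, Macrod2 and Galnt2, with 4 each. Zfp469 and Galnt2 are shorter than the others, at 230 and 114 kb, and Galnt2, a glycosyltransferase gene of the Golgi, held 3.50 such regions per 100 kb against 0.257 in Robo2. Sgcz, Cdh13, Zfp469 and Galnt2 lie on chromosome 8, where even-even regions were densest (4.27 per Mb, against a median of 1.82 over the autosomes). Sh3pxd2a, Asap1, Ephb1, Kcnma1 and Naaladl2 had 3 each. Ephb1, an ephrin receptor, had even 2 scores of 385, 389 and 1138 at its 3 regions, and a further one of 492 with both odd lists.

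The genes with most regions shared with an odd list were of 2 kinds. The predicted genes 4930467E23Rik (8 regions) and Gm38510 (5 regions) lie in or near the stretches of grouped regions, as does the part of Ulk4 that holds its 4. Ptprt, a receptor tyrosine phosphatase, Lrp1b, a lipoprotein receptor relative, Sos2, an exchange factor for Ras, Elmo1, a partner of Dock proteins in Rac activation, and Hydin, a gene of motile cilia, had 3 each. Sos2 (chr12:69583761-69681852), at 98.1 kb the shortest of these 5, held 3 even-even regions and no region of 1 even list. Their even 2 scores were 741, 276 and 132, all had odd 1 at 3100, and the first 2 had odd 2 at 447 and 291. The third had an even 1 score of 247, where 89.8% of even-even regions had 3100 or more. In Lrp1b, which spans 2058 kb, 3 regions had odd 1 and 1 of them odd 2 as well.

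Genes of the podocyte's slit diaphragm and foot processes held an even-even region inside or within 5 kb, here called a hit, in 15 of 38 cases, 11 of them without an odd peak in any region. Those with the highest even 2 scores were Ephb1, Magi2, a scaffold protein of the slit diaphragm (769 at chr5:20129046-20129478), Kirrel3, a nephrin relative (651, outside the gene at chr9:35044826-35045293), and Anln, an actin-bundling protein (565 with both odd lists, chr9:22357971-22358387). Most of the genes hit were very long. Of 9 genes of 100 to 300 kb 2 were hit (22.2%, against 28.7% of all such genes), and of 11 over 300 kb 9 were hit (81.8%, against 62.1%). Those over 300 kb include Ephb1, Robo2 and Cdh13, which are also among the 12 genes with most regions without an odd peak. The list was drawn up with earlier results of these data known, so its count is not independent of them. Podocyte transcription factors were hit in 2 of 22 cases (9.09%, against 10.9% of all genes), Lmx1b with all 4 lists (even 2 score 192, odd 2 score 269) and Nr3c1, the glucocorticoid receptor, by the even lists alone (191). With peaks at or above the median score of their list, a bound that falls mainly on the replicate 2 lists, 0 of the 22 were hit.

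Genes of the glomerular basement membrane were hit in 7 of 13 cases, of which 4 had an odd peak. They were Lama1 and Lama5, laminin chains, Col4a1, Col4a2 and Col4a3, chains of type IV collagen, Agrn and Nid1. Lama1 (chr17:67741295-67741679) had the highest scores, 798 in even 2 and 1132 in odd 2. Among those of 100 to 300 kb 4 of 7 were hit (57.1%, against 28.7%). Col4a1 and Col4a2 lie next to each other, and the list is too short to be read as more than these genes.

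Ppargc1a, the gene of PGC-1alpha, held 3 even-even regions (chr5:51454249-52115853, 662 kb). The region at chr5:51959189-51959969 had 3100 in even 1, 374 in even 2 and 3100 in odd 1, and no odd 2 peak. The regions at chr5:52051404-52051909 and chr5:52107048-52107463 had 3100 each in even 1 and 597 and 278 in even 2, with no odd peak. Over 300 kb, where Ppargc1a falls, 62.1% of genes had an even-even region. Of 32 genes of PGC-1 and its partners 8 were hit, among them Esrrg, an estrogen-related receptor (643 and 234 in even 2, no odd peak), and Mef2d (470, no odd peak). Of those of 100 to 300 kb 3 of 8 were hit (37.5%, against 28.7% of all such genes). Oxidative phosphorylation genes, which are mostly short, were hit in 3 of 92 cases (3.26%), namely Cox4i2, Ndufaf5 and Atp5k. The list was made by the first letters of gene symbols, so not every gene in it need code for a subunit. Of the 76 under 20 kb 2 were hit, where 4.79% of all such genes were. Over the whole list, gene spans alone gave 1 hit, Ndufaf5, and spans with 10 kb to each side gave 7.

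Exchange factors of small GTPases, which switch these G proteins on, were hit in 21 of 44 cases, 9 with an odd peak. All 9 genes over 300 kb were hit (100%, against 62.1%), and 10 of 25 genes of 100 to 300 kb (40.0%, against 28.7%). Beside Rasgrf2, the highest even 2 scores were those of Dock4 (1172, odd 2 score 446), Vav2 (1112, with both odd lists) and Dock1 (893, no odd peak). The Dock genes hit included Dock1, Dock2, Dock3 and Dock4, which activate Rac and related GTPases. The list was drawn up with the regions in Rasgrf2 and Sos2 known, so its count is not independent of them.

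The other lists lay on both sides of all genes of their length. Voltage-gated and TRP channel genes were hit in 15 of 42 cases, with 12 of 21 over 300 kb (57.1%, against 62.1% of all). They were led by Cacna1a (1102 in even 2, 3176 in odd 2), Kcnma1, Trpm3 and Cacna1e. Adhesion and axon guidance genes were hit in 20 of 40, with 18 of 32 over 300 kb (56.3%, against 62.1%). The highest even 2 scores were those of Cdh12 (2379, with odd 1), Lrp1b, Tenm3 and Pcdh9. Receptor tyrosine kinase and TGF-beta pathway genes were hit in 11 of 42, among them Ntrk3 (1112, no odd peak), Vegfc (900, both odd lists), Bmpr1b (672, odd 2) and Flt1, a VEGF receptor (528, both odd lists). Of those of 100 to 300 kb 7 of 15 were hit (46.7%, against 28.7% of all such genes), and of those over 300 kb 4 of 7 (57.1%, against 62.1%). Polycomb and chromatin genes were hit in 8 of 34, with 5 of 7 between 100 and 300 kb (71.4%, against 28.7%). They were led by Hdac4 (796, both odd lists), Kdm2b (607, no odd peak), Hdac9 (483, no odd peak) and Jarid2 (407, no odd peak, and 110 with both odd lists). Genes of tubule, mesangial and endothelial cells were hit in 4 of 28 (14.3%, against 10.9% of all genes), namely Flt1, Gata3, Hnf4a and Pecam1. Hox genes were hit in 0 of 39, and 36 of the 39 are under 20 kb, where 4.79% of all genes were hit. Smell receptor genes were hit in 19 of 1458 (1.30%), led by Olfr1309 (802), Olfr110 (789) and Vmn2r100 (624), each without an odd peak. Of the 1372 smell receptor genes under 20 kb 17 were hit. The median length over their whole list is 0.951 kb, so they are short even for that class. Gene spans alone gave 6 hits in that list and 10 kb to each side 30.

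**Figure D5:**
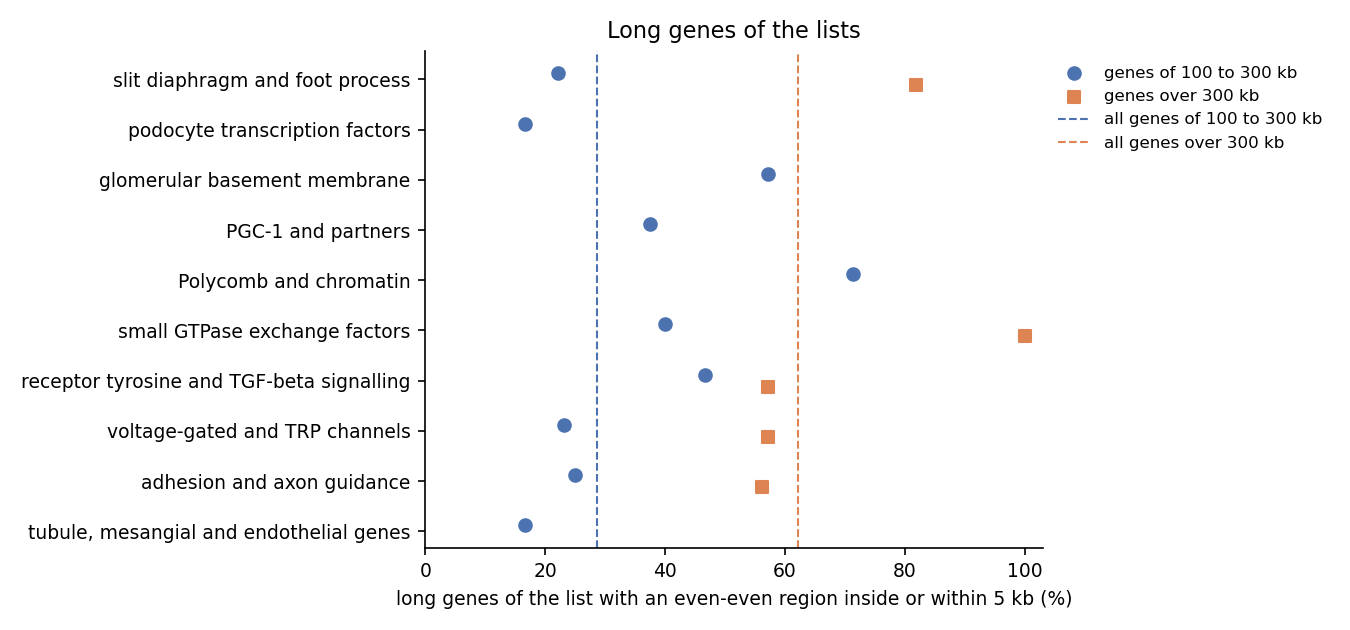
Percentage of the long genes of each list that had an even-even region inside or within 5 kb (horizontal axis), as circles for genes of 100 to 300 kb and squares for genes over 300 kb where a list has at least 6 such genes. Dashed lines mark all autosomal protein-coding genes of these lengths, 28.7% and 62.1%, and the lists lie on both sides of them.

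Few even-even regions lay at annotated gene starts. A window of 250 bases before to 50 after a start was overlapped by 89 regions (1.84%), against 1.14% of regions of 1 even list. Even-even regions are wider, with a median of 475 bp against 396 bp, and so have more room to overlap a window. The share of the chromosome span in such windows was not computed. Of 31365 autosomal start windows, 104 were overlapped (0.332%). The share was 1.46% (47 regions) without and 2.59% (42 regions) with an odd peak, and 7 of the 42 belong to the run around Ifnz. The highest even 2 score at a protein-coding start, 1688, was that of Trex1, an exonuclease gene that limits the sensing of cytosolic DNA, in a region with both odd lists (chr9:109058673-109059239). Next came Tyms, thymidylate synthase (1037, odd 1), Tuba1c (947), Gm13287 (859, odd 1), Prss47 (770, odd 1) and Tspan32, a tetraspanin gene (751, no odd peak). Il1b, the interleukin-1 beta gene, had 627 in even 2, 3100 in odd 1 and 264 in odd 2.

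Start windows inside even-even regions had a composition near that of all starts. Their median GC content was 55.3%, against 53% for all autosomal start windows, and it was 56% without and 54% with an odd peak. The letters GGGCGG, on either strand, occurred in 37.5% of the 104 windows and in 36.0% of all, CCAAT in 30.8% and 37.3%, and TATAAA in 8.65% and 13.6%. All were searched as plain letters on both strands. Of the printed starts, Sec22a and Zmpste24 lay in their regions over the whole stretch shown and the other 4 over a part of it.

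Even-even regions were densest on chromosomes 8, 19 and 15, with 4.27, 3.51 and 3.14 per Mb against a median of 1.82 over the 19 autosomes and 1.36 on chromosome 18, the lowest. Without groups of 3 or more, chromosome 8 had 3.20 per Mb. Regions of 1 even list were denser on the same chromosomes, 33.6, 33.6 and 32.9 per Mb against a median of 20.7. The share with an odd peak ran from 26.8% on chromosome 15 to 42.3% on chromosome 8, and chromosome 8 fell to 29.5% without the groups.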

How the data were processed

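DNA peaks of 4 Tug1 ChIRP-seq pulldowns (2 even, 2 odd) of mouse podocytes were analysed. Per the submitters' processing notes, the aligner was Bowtie2 2.1.0 and the build mm10. Per the file names each pulldown was called against 1 input, and peak names start with MACS. For its version, threshold and treatment of duplicates no statement is given in the sources used here. Each peak has a deposited score, which comes from the authors' caller on an unstated scale and was compared only within a list. A series-wide deposited list was not used. Peak lists give no counts, so depth is unknown and no interval is given for a result. An interval was formed only to sort recalculated shares, as described below.

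Peaks were merged at an overlap of at least 1 bp with Python 3.11.15, pandas 2.3.3 and numpy 2.4.6, and figures were drawn with matplotlib 3.10.9. Region counts were checked on simulated data and against a second tool. Genes (49997) and starts came from RefSeq tables of GRCm38.p6, positions are 1-based, and a region's class follows its centre. No test over regions was run. Gene windows were 5 kb. Groups joined regions within 10 kb. Bins and medians of even 2 scores describe chosen regions.

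Named were Tug1, the 12 protein-coding genes with most regions without and the 8 with most regions with an odd peak, the 12 and 10 regions of highest even 2 score without and with one, up to 4 genes per list by that score, and up to 12 starts. The 6 printed sequences were picked by the bounds stated with them. Of these 6, Tuba1c alone was among the 12 protein-coding starts of highest even 2 score. Ppargc1a, the grouped stretches, the small RNA genes, and further genes listed by name were picked after their values were seen. The regions and the 13 gene lists were chosen with earlier results of these data known. Single genes that the rule names but that are withheld are not reported here.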

Additional observations from a re-analysis of the deposited data

How the results depend on the processing

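Of 80 recalculated values that answer a comparison, 65 kept their size and 15 moved, and 33 of 39 recalculated counts of gene lists kept theirs. A count or ratio kept its size if it changed by no more than a fixed factor. A share did so if it stayed within the 95% binomial interval of the reported share. That interval takes regions as independent, which they are not, so these numbers are a description. Peaks at or above the median score of their list gave 3025 even-even regions. In even 1 and odd 1 that median is 3100, which 80.5% and 99.9% of their autosomal peaks reach. The setting therefore thins mainly the replicate 2 lists. The share with an odd peak, 33.5%, was 35.8% with odd peaks within 500 bp, 30.9% for isolated regions and 31.4% without groups of 3 or more. Leaving out 1 library gave 10.5% to 24.2% (10.5% without even 1, 16.9% without even 2, 23.5% without odd 1, 24.2% without odd 2). Without an even library the regions are those of the other list alone, and without an odd library 1 list is left to overlap. The share of regions with an odd peak in genes of other kinds, 4.14%, was 3.04% without chromosomes 8, 15 and 19, 2.75% for isolated regions, 6.11% by any overlap with a gene, 2.87% without regions at rRNA, tRNA, snRNA and scRNA genes and 2.70% without groups of 3 or more. It thus rests in part on those genes and groups. The start share, 1.84%, was 4.35% within 1 kb and 14.4% within 5 kb of a start. Leaving out the 4 kinds of small RNA gene and leaving out groups were chosen after seeing the data. No paired analysis was possible because the results are counts of regions and come from no test. Peak lists carry no read depth, and a deeper library can give more peaks.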
